A study of Mus musculus with 2 samples.

Results

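The Wnt genes followed here are 10 of the 31053 genes counted in both libraries: the ligands Wnt3, Wnt4, Wnt5a, Wnt10a and Wnt10b, the secreted antagonists Wif1, Sfrp1 and Dkk2, the negative-feedback target Axin2 and the nuclear factor Lef1. They were chosen as a named list of ligands, antagonists and targets, with earlier results of these data known. They were read in each keratinocyte state and in the dermal cells. Single cells came from the dorsal skin of female mice, 6 to 8 weeks old. They are labelled Chrna5-/- in 1 library and WT in the other, with vaseline as the treatment in both sample labels and tissue taken on day 7. Chrna5 encodes the alpha 5 subunit of the nicotinic acetylcholine receptor. The labels give the strain as C57BL/6, the breeding protocol gives C57BL/6N and the extraction protocol C57BL/6J. The extraction protocol also speaks of imiquimod, which the sample labels do not. How many mice stand behind each library, and which part of Chrna5 was deleted, is not given in the sources used here. Skin was digested with collagenase and SytoxBlue-negative live cells were sorted, so the yield of each cell type depends on both steps.

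Wnt proteins are secreted, lipid-modified ligands that bind Frizzled receptors, and in the canonical branch this stabilises beta-catenin, which joins Lef1 or other Tcf factors at target genes. Axin2 is transcribed in answer to beta-catenin and its protein helps to degrade beta-catenin, so it acts as negative feedback. In skin the pathway is known for starting hair follicles, for the growth phase of the hair cycle and for maintaining basal epidermal cells, and the dermal papilla at the follicle base both sends and receives these signals.

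The knockout library held 9696 barcodes with 125458721 unique molecular identifiers (UMIs) and the WT library 10741 with 139673385. After filtering, 8869 knockout and 9673 WT cells were kept, with medians of 12316 and 12552 UMIs, and 34 barcodes occurred in both libraries. Clustering of both libraries together gave 23 clusters, with the Wnt genes left out of the genes that shaped them. Of these, 13 were keratinocyte-like and held 6928 knockout and 7487 WT cells, 1 was dermal papilla-like with 508 and 584 cells, and 2 were fibroblast-like with 277 and 268 cells. With 1 library per genotype there was no replicate and no test, so every difference below is between these libraries, and all intervals are at 95% and cover the error of counting alone. Every ratio divides the knockout by the WT level in CPM, the UMIs of a gene given as a rate over the UMIs of all genes in the class. A gene was measured in a class with at least 20 UMIs over both libraries, and it is called higher or lower where the ratio was 1.5 or more, or the inverse, and its interval did not hold 1. Reads of the targeted gene were too few to check the labels by class: Chrna5 had 2 UMIs in all kept knockout cells and 11 in all kept WT cells, a ratio of 0.202 (0.0218 to 0.926).

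The named states rest on marker levels. The basal-like pool joined clusters 6, 7, 10, 11 and 12 (3980 knockout and 3175 WT cells), and its basal markers, led by Krt5 and Krt14, summed to 29311 CPM in the knockout and 29270 CPM in the WT library. In 4 of these 5 clusters no basal marker was among the 10 leading genes. The suprabasal-like pool joined clusters 2 and 9 (1414 and 1075 cells), cluster 1 was upper hair follicle-like (309 and 524) and cluster 5 was outer root sheath and bulge-like (223 and 626). Clusters 3, 8 and 14 were keratinocyte-like but were left without a state name, so they are given by number. Clusters 3 and 8 came nearest to the basal state, with 7 of 7 basal markers found. Their leading genes held markers from other lists instead, 2 of outer root sheath and bulge in cluster 3 and the Langerhans marker H2-M2 in cluster 8. The basal markers of cluster 8 summed to 25361 CPM in the knockout and 27226 CPM in the WT library, so the basal-like pool does not hold all basal-type cells. Cluster 14 came nearest to the sebaceous state, with 2 of 5 markers found. Cluster 8 was led by Tnip3, Ch25h, H2-M2 and Epgn and held 405 knockout and 1139 WT cells. Cluster 17, hair matrix and inner root sheath-like, had 53 knockout and 134 WT cells and was not compared on its own.

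Wnt3, Wnt4 and Wnt10a were at nearly equal levels in basal-like cells of the libraries, Wnt5a and Wnt10b had ratios of 0.790 (0.757 to 0.824) and 0.822 (0.709 to 0.951) in the keratinocyte-like pool, and Axin2 was higher there in the knockout. The dermal papilla-like cells differed in another way, with Lef1 and Dkk2 higher and Sfrp1 lower in the knockout library. In the pooled keratinocyte-like clusters 1 member was higher, 3 were lower, 5 were neither and 1 was not measured, where 2.64% of 14640 measured genes were higher and 7.96% lower. Over the 7 keratinocyte states compared, 51 pairs of member and state were measured, of which 4 were higher and 1 was lower, where 2.59% to 8.50% of all measured genes of a state were higher and 3.19% to 4.95% lower. The median log2 ratio of the members in the keratinocyte-like pool was -0.28, beside -0.04 over all measured genes. Within the states it was -0.14 in basal-like cells and above 0 in the other 6, at 0.024 to 0.17.

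**Figure D1:**
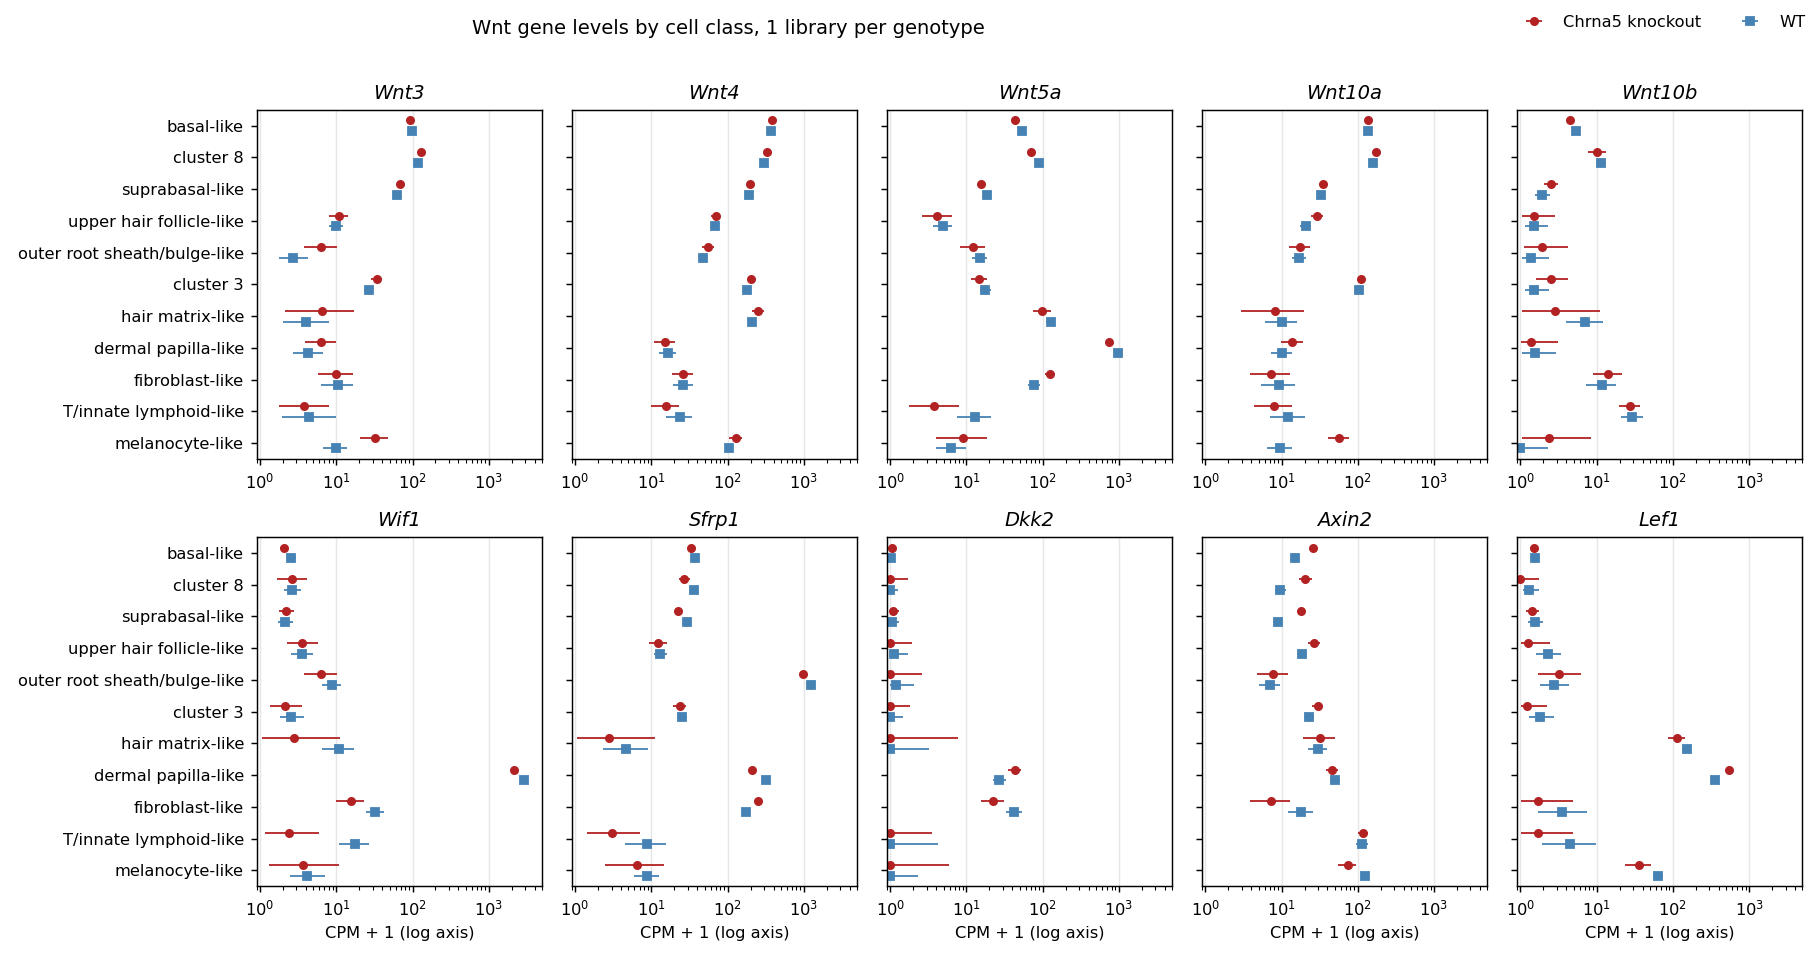
CPM + 1 on a log axis for the 10 Wnt genes (panels) in 11 cell classes (rows), with knockout as circles above WT as squares and bars for 95% Poisson intervals of the UMI sums. Wnt3, Wnt4 and Wnt10a were highest in basal-like cells and cluster 8, Sfrp1 in outer root sheath and bulge-like cells, and Wif1, Wnt5a and Lef1 in dermal papilla-like cells.

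Wnt4, a ligand that basal epidermal cells are known to make, stood at 381 CPM in knockout and 373 CPM in WT basal-like cells, a ratio of 1.02 (1.00 to 1.04). Its level was 322 against 300 CPM in cluster 8 and 194 against 190 CPM in suprabasal-like cells. Outer root sheath and bulge-like cells held 54.8 CPM in the knockout and 46.5 CPM in the WT library. The order of these classes was therefore the same in both libraries. Keratinocyte-like clusters held 98.9% of all knockout Wnt4 UMIs and 98.1% of the WT ones.

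Wnt3, a canonical ligand, stood at 91.3 CPM in knockout and 97.0 CPM in WT basal-like cells, a ratio of 0.941 (0.907 to 0.977). It was below 1 in all 5 basal-like clusters, at ratios of 0.879 to 0.997, none of them called. Cluster 8 had 127 CPM in the knockout and 115 CPM in the WT library. The one call of Wnt3 among keratinocytes was in outer root sheath and bulge-like cells, where 12 knockout and 9 WT UMIs gave 5.35 and 1.73 CPM and a ratio of 3.09 (1.20 to 8.31), beside 8.50% of genes called higher and 4.95% called lower in that state. These UMIs lay in 4 of 223 knockout and 5 of 626 WT cells, so the call rests on few cells. The interval takes the UMIs as independent and does not cover their spread over cells. In this state TMM and median-of-ratios scaling factors differed from the total by 0.118 and 0.124 on the log2 scale, in the other compared classes by less than 0.1.

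Wnt10a, a ligand whose loss is known to harm teeth, hair and other ectodermal organs, stood at 134 CPM in knockout and 135 CPM in WT basal-like cells, a ratio of 0.993 (0.963 to 1.02). Cluster 8 had 174 and 158 CPM and upper hair follicle-like cells 28.3 and 19.7 CPM, a ratio of 1.44 (1.11 to 1.85) that fell short of the call. Over the 12 keratinocyte-like clusters with at least 100 cells in both libraries, the ratio was above 1 in 7 and below 1 in 5. Wnt10b, a ligand known for promoting hair growth, was low in keratinocytes, at 3.53 CPM in knockout and 4.36 CPM in WT basal-like cells (ratio 0.810, 0.673 to 0.973). Its highest level was in T and innate lymphoid-like cells, at 26.2 CPM in the knockout and 28.4 CPM in the WT library. Within the basal-like state it was called lower in cluster 11 (30 and 50 UMIs, ratio 0.483) and cluster 12 (50 and 73 UMIs, ratio 0.576), and its ratio was 1.24 in cluster 6.

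Wnt5a, which is known mainly for beta-catenin-independent signalling, was lower in dermal papilla-like and keratinocyte-like cells without reaching the call in either pool. Dermal papilla-like cells had 744 CPM in the knockout and 970 CPM in the WT library, a ratio of 0.767 (0.726 to 0.810). Basal-like cells had 42.3 and 52.2 CPM (0.812, 0.770 to 0.855), and cluster 8 had 70.1 and 89.7 CPM (0.781, 0.692 to 0.880). The ratio was below 1 in 11 of the 12 keratinocyte-like clusters, with cluster 14 as the exception at 1.11, and it was called lower in cluster 2 (0.621) and cluster 12 (0.648). Fibroblast-like cells went the other way, with 125 CPM in the knockout and 76.8 CPM in the WT library (1.63, 1.29 to 2.06). Without fibroblast-like cluster 22, which held 15 knockout and 108 WT cells, the log2 ratio there was 0.44, and Wnt5a was no longer called. After thinning each cell to 1000 UMIs, 47.6% of knockout and 55.5% of WT dermal papilla-like cells held a Wnt5a UMI, against 0.246% and 1.09% of T and innate lymphoid-like cells. Before thinning these shares were 85.8% and 90.8% in the dermal papilla-like cluster.

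Sfrp1, a secreted Frizzled-related protein that binds Wnt ligands, marked the outer root sheath and bulge-like cells, at 970 CPM in the knockout and 1242 CPM in the WT library, a ratio of 0.782 (0.744 to 0.821). In the whole keratinocyte-like pool it stood at 47.2 against 85.3 CPM, a ratio of 0.553 (0.535 to 0.572) that was called lower. That state made up 2.51% of kept knockout cells and 6.47% of kept WT cells, and held 36.1% and 56.3% of all Sfrp1 UMIs. Without it the log2 ratio of the keratinocyte-like pool was -0.18, against -0.85 with it. With all clusters weighted alike in both libraries, by their WT cell counts, the log2 ratio was -0.34, so neither -0.18 nor -0.34 reached the call. Within clusters, Sfrp1 was below 1 in 12 of 12, at ratios of 0.596 to 0.954, and it was called lower in cluster 14 (0.596, 0.417 to 0.839) and cluster 9 (0.608, 0.504 to 0.735). Cluster 14 had 46 knockout and 135 WT UMIs of Sfrp1, and there 2.59% of genes were higher and 4.15% lower. The thinned value of cluster 14 had the opposite sign, at 0.97 on the log2 scale.

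Wif1 was, at this depth, a dermal papilla-like transcript: that cluster held 97.1% of its UMIs in both libraries. The protein, Wnt inhibitory factor, is secreted and binds Wnt ligands outside the cell. Keratinocyte-like cells had 134 UMIs of it in the knockout and 226 in the WT library, a ratio of 0.643 (0.516 to 0.800) that was called lower, and basal-like cells had 1.06 and 1.56 CPM. T and innate lymphoid-like cells, which should lack the gene, had 1.38 and 16.4 CPM, called lower on 2 and 19 UMIs. In each library the keratinocyte level was below the level there, and the part of free RNA in the keratinocyte difference was not tested. Dkk2, which blocks the Lrp co-receptors of canonical Wnt signals, was not measured in keratinocytes, with 5 UMIs in each library.

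Axin2 was called higher in the keratinocyte-like pool and in 3 of the 7 states. Basal-like cells had 25.1 CPM in the knockout and 14.2 CPM in the WT library, from 1644 and 792 UMIs, a ratio of 1.78 (1.63 to 1.93) that was called higher where 3.49% of genes were higher and 4.18% lower. Suprabasal-like cells had 16.9 and 7.85 CPM, a ratio of 2.15 (1.77 to 2.62), where 3.68% of genes were higher and 4.35% lower. Cluster 8 had 19.4 and 8.68 CPM, a ratio of 2.24 (1.70 to 2.95), where 5.31% of genes were higher and 4.09% lower. In the whole keratinocyte-like pool the values were 23.0 and 13.5 CPM and the ratio 1.70 (1.60 to 1.81). At the ratio of 1.5 these 4 calls held under each alternative that gave a value, 11 for basal-like and suprabasal-like cells, 12 for the pool and 8 for cluster 8, which has no value under the other clusterings. With free RNA subtracted, clusters weighted alike or the mean over cells, only the ratio was computed anew. The interval there was that of the summed counts, so it could not fail. For cluster 8, a single cluster, weighting alike returns the main ratio and is no separate check.

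Across the 12 keratinocyte-like clusters the Axin2 ratio was above 1 in all 12, between 1.12 and 2.24, and it was called higher in 6. Among the basal-like clusters it was 2.15 in cluster 6, 1.71 in cluster 11, which was led by mitotic genes such as Cenpf and Aspm, and 1.70 in cluster 12. It was 1.45 in cluster 10 and 1.28 in cluster 7, below the call. Cluster 10 had the highest Axin2 level of these 5 in both libraries, 33.4 CPM in the knockout and 23.0 CPM in the WT, and it held 1166 knockout and 488 WT cells. With the basal-like clusters weighted by their WT cell counts in both libraries, the log2 ratio was 0.68, against 0.83 from the summed counts. For the suprabasal-like clusters it was 0.73, against 1.10. In the other states the ratio was 1.46 (1.12 to 1.90) in upper hair follicle-like cells, 1.32 (1.04 to 1.67) in cluster 3, 1.13 (0.856 to 1.49) in cluster 14 and 1.12 (0.563 to 2.14) in outer root sheath and bulge-like cells, and none of these was called. No member at all was called in upper hair follicle-like cells, of 7 measured, where 2.77% of genes were higher and 3.86% lower, or in cluster 3, of 6 measured, where 3.57% were higher and 3.19% lower.

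**Figure D2:**
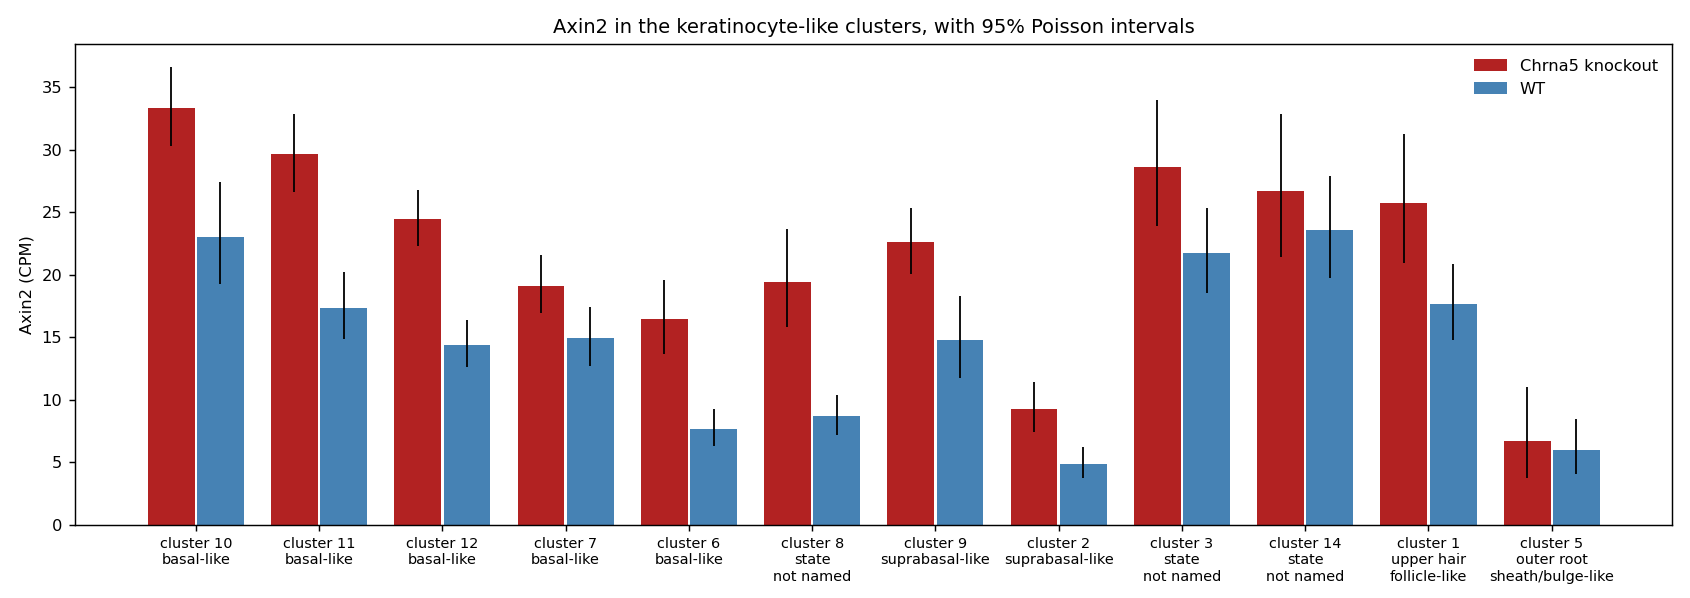
Axin2 in CPM (linear axis from 0) in the 12 keratinocyte-like clusters with at least 100 cells in both libraries, knockout left of WT, with 95% Poisson intervals. The knockout bar was above the WT bar in all 12, by a ratio of 1.12 in cluster 5 to 2.24 in cluster 8.

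The share of cells with an Axin2 UMI was also larger in the knockout in the 3 states with a call. It was 30.1% of knockout and 19.2% of WT basal-like cells before thinning, and 2.92% (2.42 to 3.49) and 1.83% (1.39 to 2.36) after thinning each cell to 1000 UMIs, which left out 4 knockout and 5 WT cells. In suprabasal-like cells the thinned shares were 2.09% and 0.659%, and in cluster 8 they were 3.95% and 1.06%. Upper hair follicle-like cells had thinned shares of 1.68% in the knockout and 2.36% in the WT library, the opposite order to that before thinning, when 69 of 309 and 105 of 524 cells held one. Outer root sheath and bulge-like cells, the compared state lowest in Axin2, had 6.28% and 3.67% before thinning, and after it at most 2 cells of a library held a UMI, too few to order.

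Axin2 was not called higher in any of the 4 other classes compared. T and innate lymphoid-like cells had 117 and 114 CPM (ratio 1.03, 0.818 to 1.31), where 2.71% of genes were higher and 5.08% lower, and dermal papilla-like cells 44.6 and 49.0 CPM (0.909, 0.715 to 1.15). It was called lower in melanocyte-like cells, at 72.7 and 125 CPM (0.584, 0.430 to 0.780), where 9.80% of genes were lower, and in fibroblast-like cells, on 9 and 27 UMIs (0.365, 0.151 to 0.800). Melanocyte-like cells had medians of 3171.5 UMIs in the knockout and 6518 in the WT library, and their keratinocyte markers summed to 12371 CPM in the knockout and 3248 CPM in the WT library. Wnt3 (3.51) and Wnt10a (6.52) were called higher in them, where 10.5% of genes were higher. The part of these keratinocyte transcripts and of depth in the melanocyte-like ratios was not tested.

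**Figure D3:**
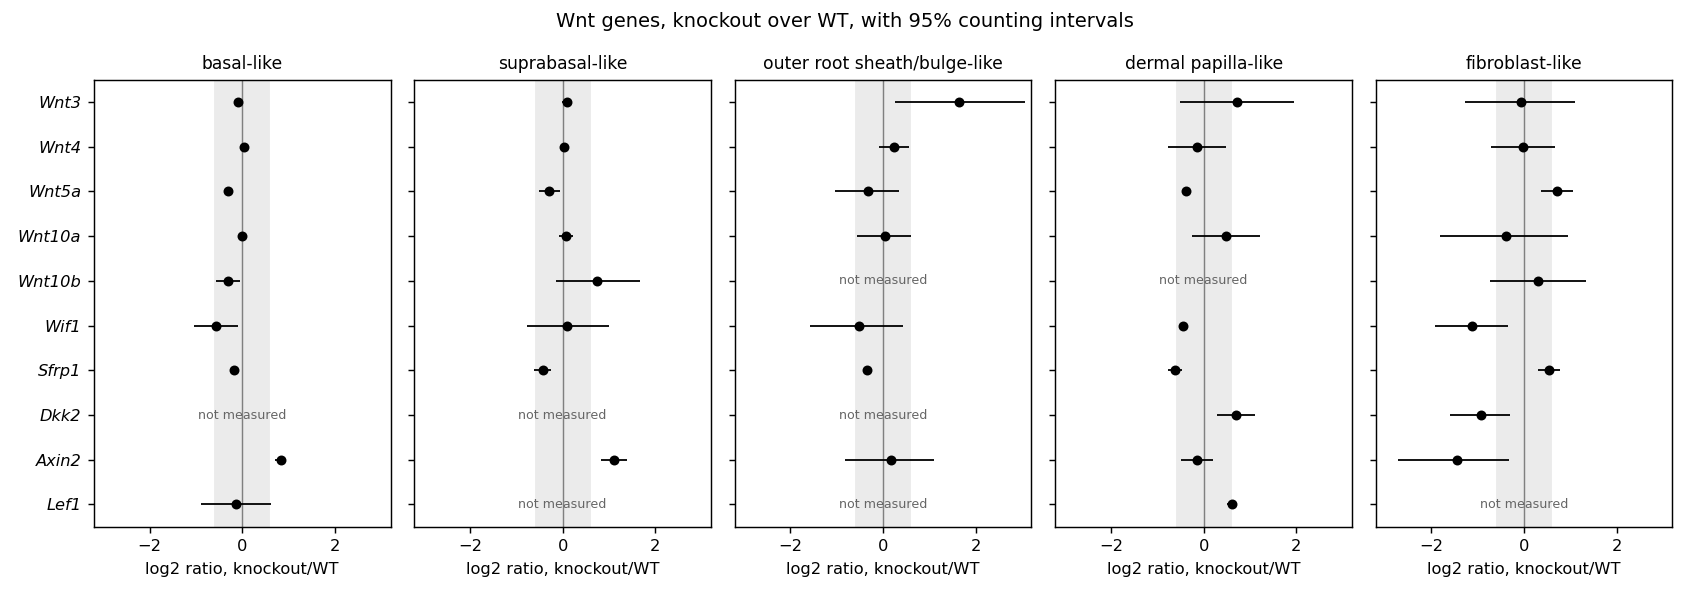
Log2 ratio, knockout over WT, of the 10 Wnt genes (rows) in 5 cell classes (panels), with 95% counting intervals and a grey band for ratios within 1.5 either way. Axin2 lay right of the band in basal-like and suprabasal-like cells, and in dermal papilla-like cells Lef1 and Dkk2 lay at its right edge or beyond and Sfrp1 beyond its left edge.

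The dermal papilla-like cluster was led by its own markers, Vcan, Hhip, Crabp1 and Corin, and these and the other listed papilla markers summed to 12310 CPM in the knockout and 12015 CPM in the WT library. Its median depth was 5347.5 and 6732 UMIs per cell, its median mitochondrial share 1.75% and 2.62%, and its keratinocyte markers summed to 1447.5 and 1337 CPM. The part of the mitochondrial share in the papilla ratios was not tested. Of the 9 members measured, 2 were higher, 1 was lower and 6 were neither, where 3.62% of 11394 genes were higher and 4.0% lower. Lef1 had 541 CPM in the knockout and 355 CPM in the WT library, a ratio of 1.52 (1.41 to 1.64). This is at the edge of the call: under TMM scaling its log2 ratio was 0.56 and under median-of-ratios scaling also 0.56, both short of it. Dkk2 had 41.9 and 25.9 CPM from 111 and 96 UMIs, a ratio of 1.62 (1.22 to 2.15). With coarser clusters (resolution 0.5) its log2 ratio was 0.30, and after thinning its interval held 0.

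The antagonists Wif1 and Sfrp1 were at the lower level in the knockout papilla. Wif1 had 2152 CPM in the knockout and 2912 CPM in the WT library, a ratio of 0.739 (0.716 to 0.763) that fell short of the call. Sfrp1 had 208 and 319 CPM, a ratio of 0.650 (0.587 to 0.720). After thinning, a Wif1 UMI was found in 65.9% of knockout and 77.7% of WT papilla cells, a Lef1 UMI in 40.4% and 28.9%, a Sfrp1 UMI in 16.7% and 26.1%, and a Dkk2 UMI in 4.49% and 2.68%. Without thinning these were 85.0% and 90.8% for Wif1, 81.5% and 74.8% for Lef1, 52.4% and 67.6% for Sfrp1, and 15.4% and 11.6% for Dkk2. T and innate lymphoid-like cells, as background, had thinned shares of 0.246% and 1.91% for Wif1, with median depths of 2831 and 2627 UMIs.

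Finer clustering (resolution 2) divided most papilla cells into a group with Ndnf and Bmp6 among its leading genes (fine cluster 0, 196 knockout and 332 WT cells) and a group led by Npr3 and Luzp2 (fine cluster 2, 246 and 171 cells). Wif1 was highest in the first, at 3314 CPM in the knockout and 3847.5 CPM in the WT library, and stood at 1392.5 and 1384 CPM in the other. Its ratio was therefore 0.861 (0.828 to 0.896) in fine cluster 0 and 1.01 (0.942 to 1.07) in fine cluster 2, each nearer to 1 than in the papilla as a whole, and the log2 ratio with the finer clusters weighted alike was -0.22, against -0.44. Lef1 was higher in both without reaching the call, at 540 and 361 CPM (1.49, 1.34 to 1.66) in fine cluster 0 and 548 and 392 CPM (1.40, 1.24 to 1.57) in fine cluster 2. Sfrp1 had ratios of 0.517 (0.438 to 0.609) and 0.710 (0.615 to 0.820), and Wnt5a of 0.739 and 0.780. Dkk2 stood at 45.3 against 22.3 CPM in fine cluster 0 (2.03, 1.34 to 3.08) and 37.7 against 35.9 CPM in fine cluster 2 (1.05, 0.691 to 1.61), and this difference between the fine clusters was not tested. A further 55 knockout and 56 WT cells formed fine cluster 39, with medians of 1184 and 1172.5 UMIs. Haemoglobin genes led it over both libraries together. Yet the erythrocyte markers of the whole papilla-like cluster summed to 0 CPM in the knockout and 115 CPM in the WT library. In fine cluster 39 Lef1 stood at 811 and 228 CPM. Wif1 there stood at 840 and 1694 CPM (0.496, 0.361 to 0.671), further from 1 than in the papilla as a whole. Sfrp1 there had a ratio of 0.348 (0.103 to 0.948) on 5 and 21 UMIs.

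**Figure D4:**
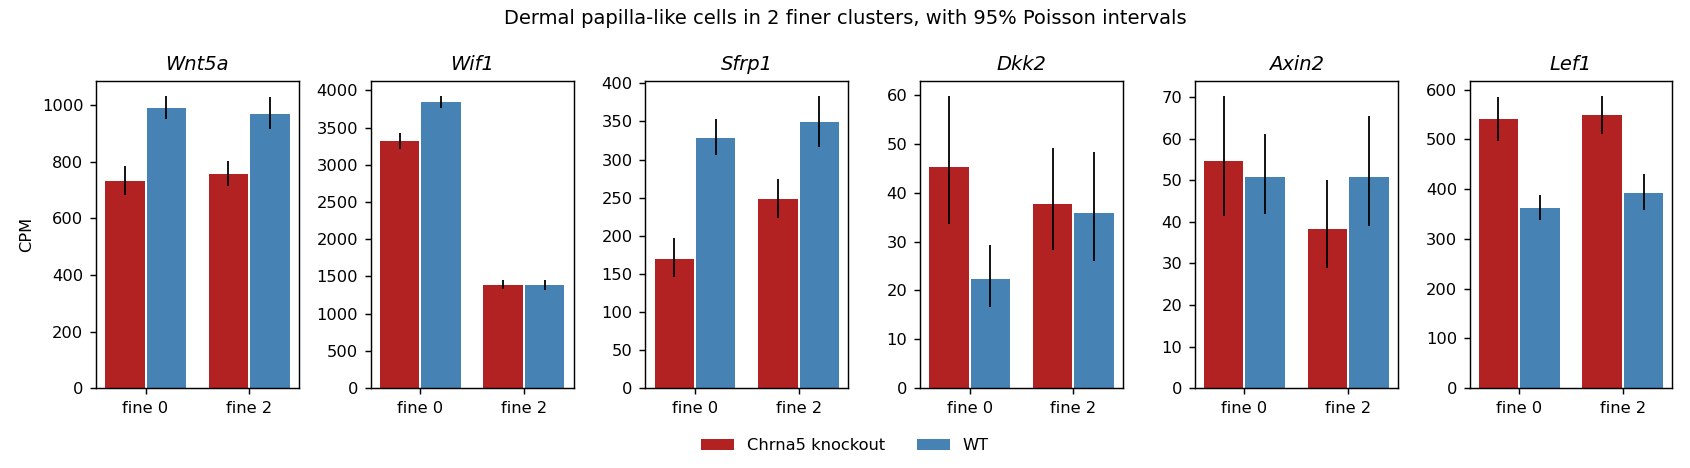
CPM of 6 Wnt genes in 2 finer clusters of the dermal papilla-like cells, knockout left of WT, with 95% Poisson intervals and a separate linear axis from 0 for each gene. Lef1 was higher and Wnt5a and Sfrp1 lower in the knockout in both, while Wif1 (1392.5 and 1384 CPM) lay level in fine cluster 2.

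Lef1 in the keratinocyte-like pool had 1.03 CPM in the knockout and 2.73 CPM in the WT library, a ratio of 0.379 (0.302 to 0.472). Most of it came from the hair matrix and inner root sheath-like cluster, with 61 of 111 knockout and 247 of 318 WT UMIs, at 111 and 151 CPM. That cluster made up 0.598% of kept knockout and 1.39% of kept WT cells. With the keratinocyte clusters weighted by their WT cell counts in both libraries, the log2 ratio of the pool was -0.43, against -1.40. Melanocyte-like cells had Lef1 at 35.0 and 62.4 CPM (0.561, 0.357 to 0.850).

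Fibroblast-like cells had 1 member higher (Wnt5a), 3 lower and 5 neither of 9 measured, where 5.60% of genes were higher and 5.90% lower. The lower ones were Wif1 at 14.5 and 31.5 CPM (0.460, 0.263 to 0.780), Dkk2 at 21.4 and 40.9 CPM (0.523, 0.329 to 0.813) and Axin2. Without cluster 22, led by Lrrc15, Col1a1 and Acan, 0 members were called of 6 measured. The share of all genes called without cluster 22 is not given here, so this count has no background beside it. Axin2, with 8 and 11 UMIs in the remaining cluster 19, was then below the minimum of 20, at a ratio of 0.493 (0.172 to 1.34). Dkk2 was most abundant in cluster 22, at 72.4 CPM in the knockout and 78.1 CPM in the WT library, and stood at 16.6 and 12.2 CPM in cluster 19. Within cluster 22, which has too few knockout cells to be compared, Wif1 had 153 CPM in the knockout and 65.1 CPM in the WT library on 19 and 45 UMIs, the opposite order to the fibroblast-like pool. The median mitochondrial share of fibroblast-like cells was 1.03% in the knockout and 2.29% in the WT library, and their dermal sheath markers summed to 516 and 970 CPM. The part of these in the fibroblast-like ratios was not tested.

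The promoter windows of the members that the results turn on are shown to give the sequence beside these levels. The windows come from RefSeq on GRCm38.p6, 250 bases before to 50 after a gene start, and 7 of the 10 members matched. Letters that Lef1 and Tcf factors are known to bind were searched on both strands. CTTTGAA was searched first, with CTTTGAT as the next form, then also CTTTGTA and, as the last form, CTTTGTT, and no stretch can match more than 1 of them. Capitals mark a match. Of all 32851 windows 16.88% held at least 1 of these. The Axin2 window lies at chr11:108920099-108920398 (plus strand), the Lef1 window nearest the annotated gene start at chr3:131110073-131110372 (plus strand) and the Wnt3 window at chr11:103773925-103774224 (plus strand). Among the 7 members only the Wnt3 window held a match, 1 CTTTGTT that starts at base 269 of the window. For each member 1 window was read. Lef1 had 4 listed, and the one read ends before the annotated gene start at base 131110471.
Axin2: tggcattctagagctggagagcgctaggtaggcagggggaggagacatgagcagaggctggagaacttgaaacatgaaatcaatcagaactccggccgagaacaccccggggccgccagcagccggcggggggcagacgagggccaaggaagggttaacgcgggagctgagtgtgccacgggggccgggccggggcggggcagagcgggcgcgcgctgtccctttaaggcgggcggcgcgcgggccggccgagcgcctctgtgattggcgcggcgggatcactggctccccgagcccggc
Lef1: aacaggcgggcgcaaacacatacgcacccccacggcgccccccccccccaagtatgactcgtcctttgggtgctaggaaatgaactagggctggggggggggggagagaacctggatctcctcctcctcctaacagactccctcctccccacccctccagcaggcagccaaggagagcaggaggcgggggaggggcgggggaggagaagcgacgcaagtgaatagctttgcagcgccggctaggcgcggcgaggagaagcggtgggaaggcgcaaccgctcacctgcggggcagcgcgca
Wnt3: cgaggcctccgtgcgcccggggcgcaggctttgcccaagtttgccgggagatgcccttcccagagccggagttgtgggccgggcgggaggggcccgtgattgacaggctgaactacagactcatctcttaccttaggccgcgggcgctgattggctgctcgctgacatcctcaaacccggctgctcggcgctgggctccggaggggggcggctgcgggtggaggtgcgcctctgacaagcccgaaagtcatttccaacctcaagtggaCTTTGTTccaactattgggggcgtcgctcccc

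The other genes of the pathway were read from a list of 91 Wnt genes that includes the members and was also chosen with earlier results of these data known. In basal-like cells 7 of 69 measured were higher, 0 were lower and 62 were neither, where 3.49% of all measured genes were higher and 4.18% lower. The highest was Rspo3, an R-spondin that amplifies Wnt signals, at 10.3 CPM in the knockout and 3.47 CPM in the WT library (2.96, 2.52 to 3.49), before Myc, a growth regulator that beta-catenin can activate, at 144 and 78.2 CPM (1.84, 1.77 to 1.90). Of the 13 targets and feedback genes 4 were higher, 0 lower, 7 neither and 2 not measured. The median log2 ratio of the list was -0.01 in these cells, beside -0.01 over all measured genes.

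Suprabasal-like cells had 10 of 61 measured pathway genes higher and 1 lower, where 3.68% of all measured genes were higher and 4.35% lower. Nkd2, an intracellular Wnt antagonist, had 2.15 and 0.484 CPM from 48 and 9 UMIs (4.44, 2.16 to 10.3), and Rspo3 had 6.62 and 2.31 CPM (2.87, 2.03 to 4.12). The lower one was Ccnd1, a cyclin of the G1 phase, at 27.2 and 41.4 CPM (0.656, 0.589 to 0.730). Ccnd1 was also called lower in upper hair follicle-like cells (0.653) and in cluster 14 (0.477). Cluster 8 had 9 of 61 higher and 0 lower, where 5.31% of all were higher and 4.09% lower, with Rspo3 at 13.7 and 2.73 CPM (5.02, 3.33 to 7.67). Upper hair follicle-like cells had 3 higher and 1 lower of 55 (2.77% and 3.86% of all). Cluster 3 had 3 and 0 of 59 (3.57% and 3.19%). Outer root sheath and bulge-like cells had 5 and 3 of 60 (8.50% and 4.95%), and cluster 14 had 4 and 4 of 56 (2.59% and 4.15%). The whole keratinocyte-like pool had 6 higher and 13 lower of 76, where 2.64% of all were higher and 7.96% lower. The part of the smaller share of outer root sheath and hair matrix-like cells in the knockout library in these counts was not tested.

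In dermal papilla-like cells 3 of 70 measured pathway genes were higher and 7 lower, where 3.62% of all measured genes were higher and 4.0% lower. Of the secreted antagonists 4 were lower, 1 was higher, 3 were neither and 5 were not measured. The higher one was Dkk2 and the lower ones include Sfrp1, both members given above. Frzb, another secreted Frizzled-related protein, had 60.0 CPM in the knockout and 135 CPM in the WT library (0.445, 0.370 to 0.533), and Notum, an enzyme that removes the lipid from Wnt proteins, had 107 and 187 CPM (0.573, 0.498 to 0.659). The lowest was Rspo4, an R-spondin, at 4.91 and 55.0 CPM (0.0893, 0.0467 to 0.156). Wnt6, a ligand, was the highest at 24.5 and 11.6 CPM (2.12, 1.42 to 3.19). The median log2 ratio of the list was -0.06, beside 0.04 over all measured genes.

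For each member the genes of most like level were taken over 44 pairs of cluster and library, among 12531 genes, by Pearson's r of log2(CPM + 1). The pairs share libraries, depth and marker genes, so r is a description. Wnt10a was most like the basal keratins Krt5 (0.937) and Krt14 (0.917), and then Fcgbp (0.915). Wif1 was most like Ndp (0.924), itself a secreted activator of Frizzled4, Lamc3 (0.916) and Spock1 (0.906), and Dkk2 was most like Ptgfr (0.979), Gm26523 (0.978) and Tspan11 (0.978). Wnt4 was most like Ociad2 (0.896), Tnfrsf19 (0.887) and Fam83f (0.882), Wnt3 like Chit1 (0.886), Serpinb2 (0.874) and Il22ra2 (0.874), and Wnt5a like Bmp4 (0.842), Cebpg (0.772) and Hoxc4 (0.754). For Lef1 the nearest was Chordc1 (0.844), then Scube3 (0.830) and Ubfd1 (0.809), and for Sfrp1 Steap4 (0.800), Rerg (0.761) and Ephb3 (0.757). Axin2 and Wnt10b had no close match, at 0.728 with B3galt5, 0.705 with Slc52a2 and 0.687 with Ciapin1 for Axin2 and 0.641 with Errfi1, 0.607 with Adamtsl3 and 0.595 with Xdh for Wnt10b.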

How the data were processed

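The deposited matrices held raw UMI counts per gene and barcode, whole numbers without normalization, per the file headers. The submitters' processing notes name Cell Ranger 3.0.2, Seurat 3.0 and mm10, and the file headers give a later Cell Ranger version. Whether counting used strand is not given in the sources used here. Barcodes with at least 500 UMIs, 300 genes and at most 20% mitochondrial UMIs were kept. Scrublet's own thresholds called 1.19% of knockout and 0.0295% of WT cells, so a common score of 0.25, set after seeing the data, removed 439 and 487 cells. Counts scaled to 10000 per cell, 2000 variable genes without Wnt genes, 30 components, 15 neighbours and Leiden clustering at resolution 1 (scanpy 1.11.5, igraph 0.11.9, Python 3.11.15) defined clusters, which were named from fixed markers.

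UMI counts were summed per class and library and given as CPM, with exact Poisson intervals for sums, exact conditional binomial intervals for ratios and Clopper-Pearson intervals for shares (scipy 1.17.1). Classes needed 100 cells in both libraries. A count of 0 was read as at most 3 counts. Clusters weighted alike took the same weights in both libraries, in proportion to their WT cells, and not equal weights. The 10 members, the 91 listed genes and the markers were chosen with earlier results of these data known. Named beyond the members are, per class, called pathway genes (at most 4 each way) and 3 genes of like pattern per member.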

Additional observations from a re-analysis of the deposited data

Results flagged for a closer look

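Axin2 was called higher in 3 keratinocyte groups and lower in 2 other cell types under the same contrast. The ratio, knockout over WT, was 1.78 in basal-like, 2.15 in suprabasal-like and 2.24 in cluster 8 keratinocytes, against 0.584 in melanocyte-like and 0.365 in fibroblast-like cells. Lef1 stood at 1.52 in dermal papilla-like and 0.561 in melanocyte-like cells. Dkk2 stood at 1.62 in dermal papilla-like and 0.523 in fibroblast-like cells. With 1 library per genotype none of these differences between cell types was tested. Without fibroblast-like cluster 22, which held 15 knockout and 108 WT cells, Dkk2 was not called in fibroblast-like cells, and Axin2, with 8 and 11 UMIs, fell below the minimum of 20 UMIs at a ratio of 0.493. The melanocyte-like cells also differed in depth between the libraries, with medians of 3171.5 UMIs in the knockout and 6518 in the WT.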

How the results depend on the processing

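Against 4 calls among keratinocyte-like clusters, 5 among keratinocyte states, 3 in the dermal papilla-like cluster and 4 in fibroblast-like clusters, the smaller ratio tried as the limit of a call gave 15 for the states and 5 for the papilla. The ratio of 2 gave 1 for keratinocyte-like clusters, 3 for the states, 0 for the papilla and 2 for fibroblast-like clusters. The shares of all measured genes called at the smaller ratio and at the ratio of 2 are not given here. The counts at these limits therefore have no background beside them. Thinning gave 2 in fibroblast-like clusters. Clusters weighted alike, with the intervals of the summed counts, gave 1 in keratinocyte-like and 2 in fibroblast-like clusters. Resolution 0.5 gave 1 in the papilla and 2 in fibroblast-like clusters. Of the alternatives chosen after seeing the data, leaving out the outer root sheath and bulge-like cluster gave 2 in keratinocyte-like clusters, and leaving out cluster 22 gave 0 in fibroblast-like clusters, where fewer members were measured. The other alternatives for these 4 counts stayed within 1.5 times.

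The alternatives covered the keratinocyte-like, dermal papilla-like and fibroblast-like ratios. Called ratios of melanocyte-like and of T and innate lymphoid-like cells were not put through them. Among the called log2 ratios covered, the sign changed for Sfrp1 in cluster 14 when thinned (0.97) and for Wif1 in fibroblast-like cells with clusters weighted alike (1.08). It also changed for Dkk2 in fibroblast-like cells with clusters weighted alike (0.010), without cluster 22 (0.44) and at resolution 0.5 (0.12), and for Wnt5a there at resolution 2 (-0.042). The cause was not tested. Ratios that were not called changed sign as well, among them Axin2 in upper hair follicle-like cells (0.54, down to -0.49), in dermal papilla-like cells (-0.14, up to 0.48) and in cluster 14 (0.18, down to -0.0089). Axin2 stayed above 0 under all 11 alternatives in basal-like cells, at 0.68 to 0.90. Depth limits the thinned values of low members such as Wif1 and Lef1 in keratinocytes. No paired analysis was possible because each genotype had 1 library.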
